A study of Mus musculus with 30 samples.

Results

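Deletion F is a heterozygous deletion of 18.9 Mb of the X chromosome (mm10, 75567564 to 94452400) in female mouse embryonic stem cells (mESCs), and it was represented by 2 clones among the 30 RNA-seq libraries of the study. The cells are F1 hybrids with a *Mus* (129/Sv) and a *Cast* (Cast/Ei) X chromosome, both of them active, and the deletion removes the *Mus* copy. The 2 Deletion F libraries were set against 13 libraries of 8 other lines that keep both copies of this interval: Deletion A, B and AB with 1 clone each, and Deletion C, D, H, I and K with 2 clones each. All 15 libraries are *Rnf12* +/- (the *Mus* allele of *Rnf12* is deleted in controls and Deletion F alike), and the vector used to make the deletions carried a neomycin resistance cassette for selection. The cells grew on feeder fibroblasts, which were depleted by pre-plating before RNA was extracted. Each comparison line lacks another interval of the *Mus* X, so the reference is a set of deletion lines and not the parental cells. The authors placed the deletion borders with the allelic reads of these same lines, so that the loss of *Mus* reads checks the labels and is no finding. The members described here are the genes that lie wholly inside the interval, 222 of the 55240 genes matched to the annotation, with 54 protein-coding genes among them. No gene crosses a border.

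In XX mESCs both X chromosomes are transcribed, and differentiation later silences 1 of them. When a gene loses a copy its transcript level can follow the copy number, or the copy that stays can be transcribed more, which for the X is called X-chromosome upregulation (XCU). The Deletion F interval holds genes of broad cellular use, among them *Eif2s3x*, the gamma subunit of the translation initiation factor eIF2, and *Pola1*, the catalytic subunit of DNA polymerase alpha. It also holds *Nr0b1* (Dax1), an orphan nuclear receptor of the pluripotency network, and *Dmd*, which encodes dystrophin.

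Total counts ran from 8816184 to 10680026 per library, and 12.18% to 12.65% of counts were assigned to an allele. Levels are given as CPM, counts scaled to a common library size and adjusted between libraries with TMM factors of the autosomal genes. The mESC markers *Pou5f1*, *Nanog*, *Esrrb*, *Sox2* and *Zfp42* were expressed in both Deletion F clones. *Pou5f1* had 1498 and 1272 CPM against 1005 to 1481 CPM in the comparison libraries, and *Nanog* 593 and 530 CPM against 409 to 582 CPM. *Esrrb* had 1462 and 1530 CPM against 998 to 1791 CPM, and *Sox2* 382 and 380 CPM against 310 to 388 CPM. *Zfp42* had 556 and 348 CPM against 294 to 526 CPM. Clone 1 was thus above every comparison library in *Pou5f1*, *Nanog* and *Zfp42*, and clone 2 was not. The summed level of 8 feeder fibroblast genes was 201 and 192 CPM in Deletion F and 137 to 592 CPM (median 267) in the comparison libraries, so that 5 comparison libraries lay below both clones and 8 above, and none of the 8 genes was at 0 in both clones. For 5 primitive endoderm genes the sum was 12.8 and 18.8 CPM against 10.4 to 27.9 CPM. In bulk RNA, fewer cells of a type and less RNA per cell cannot be told apart. Clone 2 of Deletion F and clone 1 of Deletion I stood apart in autosomal copy number as read from levels and allelic shares.

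Reads of the *Mus* allele were nearly absent from the interval in both clones. Over the protein-coding genes, clone 1 had 12 *Mus* counts (0.976% of allelic counts, 95% Wilson interval 0.559% to 1.70%) and clone 2 had 9 (0.722%, 0.380% to 1.37%), while the comparison libraries had shares of 41.7% to 46.7%. Of these 21 *Mus* counts, 11 fell in *Pls3* and 4 in *Tbl1x*. The intervals cover counting error only, since reads without molecular identifiers are not independent molecules. For X-linked genes outside every deletion of the 9 lines the *Mus* share was 54.4% and 54.9% in Deletion F, within the 53.3% to 55.5% of the other libraries.

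The fitted level of every tested protein-coding gene of the interval was below that of the other lines. Of the 54, 19 passed the filter of a mean of 10 counts over the 15 libraries, and all 19 had a negative log2 fold change, with a median of -0.94 beside -0.01 over all genes tested. edgeR's quasi-likelihood test with Benjamini-Hochberg adjustment called 6 of the 19 lower and 0 higher. Over all 14863 genes tested, 0.0673% were called lower. *Pdk3*, *Eif2s3x*, *Tmem47*, *Gk*, *Tbl1x* and *Klhl15* were the 6. Along the X chromosome (mm10) the order was *Tbl1x* (ENSMUSG00000025246) at 77511013 to 77662983, *Tmem47* (ENSMUSG00000025666) at 81070698 to 81097872, *Gk* (ENSMUSG00000025059) at 85701937 to 85776819, *Pdk3* (ENSMUSG00000035232) at 93764607 to 93832201, *Eif2s3x* (ENSMUSG00000035150) at 94188707 to 94212862 and *Klhl15* (ENSMUSG00000043929) at 94234599 to 94277724. This fit treats clones of 1 line as separate samples. With the line as a block in limma voom *Pdk3* alone stayed called (adjusted p = 0.0290), while *Eif2s3x* (0.182), *Tbl1x* (0.627), *Tmem47* (0.627), *Gk* (0.644) and *Klhl15* did not pass, and counts summed per line gave 0 calls. With clone 1 of Deletion F alone 1 gene of the interval was called and with clone 2 alone 2. At an unadjusted p under 0.05, 17 of the 19 were lower, against 4.55% of all genes. In 12 of the 19 genes both Deletion F clones lay below every comparison library, which held for 2.21% of all genes tested. The remaining 35 protein-coding genes had too few counts to be tested, and 23 of them had no count in any library.

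**Figure D1:**
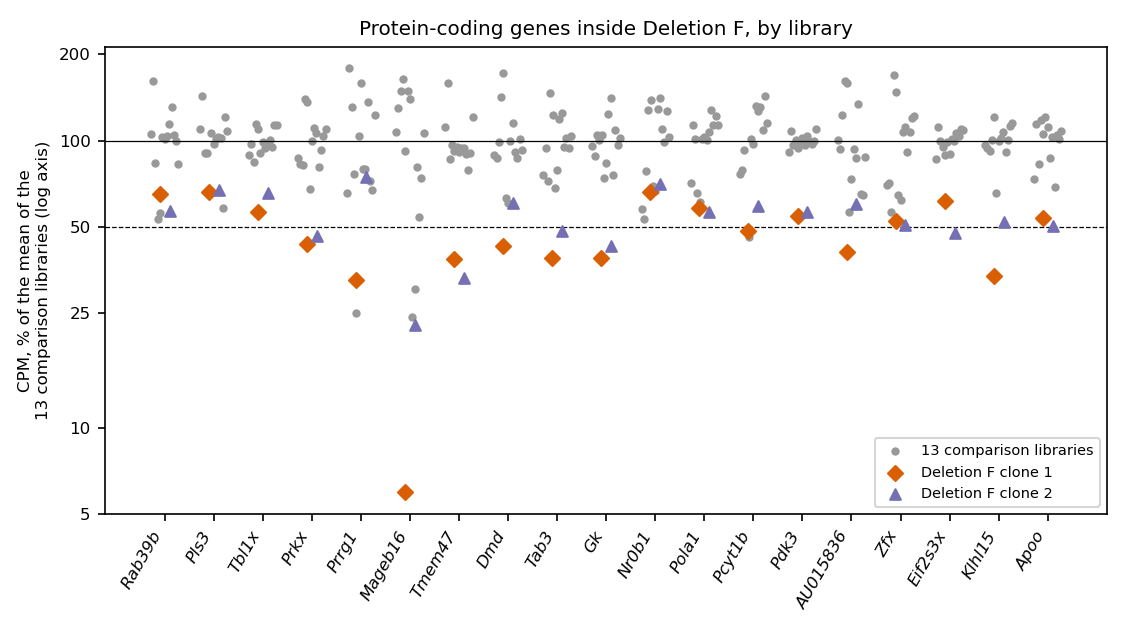
Level of the 19 tested protein-coding genes inside Deletion F, in order along the X chromosome. The y axis (log scale) is the CPM of a library as a percent of the mean of the 13 comparison libraries; grey points are comparison libraries, diamonds Deletion F clone 1 and triangles clone 2, and the lines mark 100% and 50%. The clones lie between 5.95% (*Mageb16*, clone 1) and 74.5% (*Prrg1*, clone 2), and in 12 genes both are below all grey points.

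Added over the 19 genes, the level was 971 and 1035 CPM in the Deletion F clones and 1441 to 2010 CPM (median 1854) in the comparison libraries. The clones therefore kept 56.5% of the mean level of the other lines, as a sum in which abundant genes weigh most. Gene by gene, the median was 48.6% in clone 1 and 56.3% in clone 2. With 1 copy of 2 left, no change per copy corresponds to a log2 fold change of -1. The 95% interval of the fold change included -1 in 16 of the 19 genes and included 0 in 2.

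Among the metabolic genes, *Pdk3* and *Gk* were called lower, and *Pcyt1b* and *Apoo* did not pass. *Pdk3*, a kinase that inhibits the pyruvate dehydrogenase complex, had 69.1 and 71.3 CPM in Deletion F and 116 to 139 CPM (median 125) in the other libraries. The ranges did not overlap, and *Pdk3* had the narrowest spread of the interval (log2 fold change -0.84 ± 0.0895 SE, edgeR adjusted p = 0.000371). *Gk*, glycerol kinase, had 17.9 and 19.7 CPM against 33.8 to 64.1 CPM (median 45.9), also without overlap (-1.28 ± 0.205 SE, edgeR adjusted p = 0.0214). *Pcyt1b*, the beta isoform of the rate-limiting enzyme of phosphatidylcholine synthesis, had 73.9 and 90.2 CPM against 70.4 to 217 CPM (median 154). Its ranges overlapped because both Deletion C clones were as low as Deletion F (75.1 and 70.4 CPM), and it did not pass the test (edgeR adjusted p = 0.484). *Apoo*, a subunit of the MICOS complex of the mitochondrial inner membrane, had 7.62 and 7.17 CPM against 9.80 to 17.2 CPM and did not pass either, although no comparison library reached down to the clones (edgeR adjusted p = 0.155).

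*Eif2s3x* had 129 and 99.3 CPM in Deletion F and 180 to 232 CPM (median 208) in the other libraries. All comparison libraries were above both clones (log2 fold change -0.87 ± 0.118 SE, edgeR adjusted p = 0.00585), and the clones differed, with 61.6% and 47.6% of the mean of the other lines. *Pola1* had 139 and 134 CPM against 145 to 303 CPM (median 245). The Deletion C clones again formed the lower end (157 and 145 CPM), the ranges did not overlap by a small margin, and the test was not passed (-0.80 ± 0.231 SE, edgeR adjusted p = 0.286).

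Of the regulators of transcription, *Tbl1x* was called lower, and *Nr0b1* and *Zfx* did not pass. *Nr0b1* had 179 and 192 CPM in Deletion F and 145 to 382 CPM (median 278) in the other libraries. The 4 lowest lines besides Deletion F were AB (145 CPM), A (157 CPM), D (188 and 180 CPM) and B (213 CPM), which keep both copies of *Nr0b1*, while C, H, I and K had 268 to 382 CPM. Deletion F thus lay inside the range of the lines with 2 copies (log2 fold change -0.55, 95% interval -1.23 to 0.14, edgeR adjusted p = 0.695). *Tbl1x*, a subunit of the NCoR and SMRT corepressor complexes, had 133 and 155 CPM against 199 to 270 CPM (median 230) and was called lower (-0.71 ± 0.121 SE, edgeR adjusted p = 0.0307). *Zfx*, a zinc finger transcription factor used in stem cell self-renewal, had 33.03 and 32.04 CPM against 35.4 to 106 CPM (median 67.4). The ranges of *Zfx* did not overlap, but the comparison lines were spread widely and the gene did not pass (edgeR adjusted p = 0.456).

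**Figure D2:**
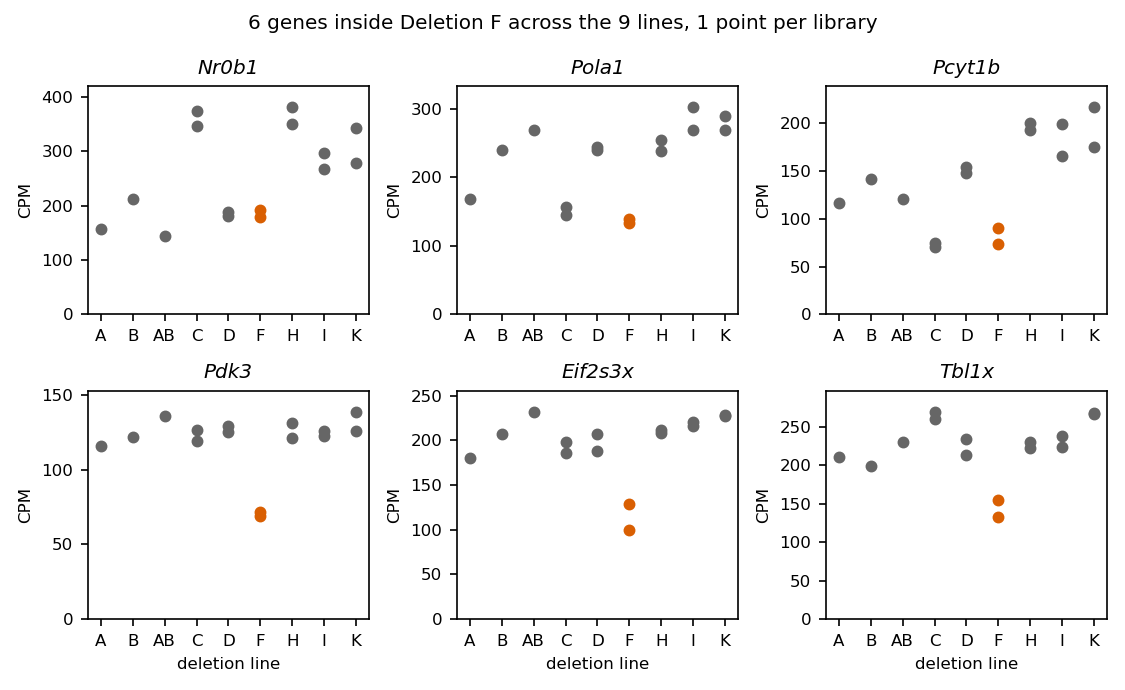
CPM of 6 genes inside Deletion F in the 9 lines, 1 point per library, with Deletion F in orange and y axes from 0. *Pdk3*, *Eif2s3x* and *Tbl1x* are evenly expressed in the lines with 2 copies (116 to 139, 180 to 232 and 199 to 270 CPM) and lower in Deletion F, whereas *Nr0b1* is as low in lines A, AB and D, and *Pola1* and *Pcyt1b* are nearly as low or as low in line C.

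Among signalling and ubiquitin genes, *Klhl15*, a substrate adaptor of a cullin 3 ubiquitin ligase, was called lower, with 4.10 and 6.33 CPM against 8.01 to 14.6 CPM (log2 fold change -1.21 ± 0.213 SE, edgeR adjusted p = 0.0331). *Tab3*, an adaptor of the kinase TAK1, had 35.8 and 44.5 CPM against 62.7 to 135 CPM, and *Prkx*, a kinase related to protein kinase A, had 16.3 and 17.4 CPM against 25.3 to 52.4 CPM. Neither overlapped the comparison range and neither passed the test (edgeR adjusted p = 0.113 and 0.0985).

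Of the genes of the cytoskeleton and membrane, *Tmem47*, which encodes a transmembrane protein of cell junctions, had the largest called decrease. It had 10.6 and 9.03 CPM against 21.4 to 43.0 CPM (log2 fold change -1.47 ± 0.224 SE, edgeR adjusted p = 0.0141), and its 95% interval began at -1.94 and ended just below -1, the value of 1 copy. *Dmd* had 40.0 and 56.5 CPM against 56.2 to 160 CPM, *Pls3*, an actin-bundling protein, had 46.8 and 47.5 CPM against 41.1 to 101 CPM, and *Rab39b*, a small GTPase, had 3.52 and 3.07 CPM against 2.88 to 8.70 CPM. These 3 overlapped the comparison range and did not pass. *Prrg1* (0.489 and 1.12 CPM) and *Mageb16* (0.0977 and 0.373 CPM, against 0.399 to 2.69 CPM) were so low that their intervals spanned more than 2 log2 units. *AU015836* had 32.7 and 48.0 CPM against 45.1 to 128 CPM. On the TPM scale, which divides counts by transcript length, *Nr0b1* was the most abundant of the 19 in the comparison libraries (502 TPM), followed by *Eif2s3x* (183 TPM), *Pdk3* (165 TPM) and *Tbl1x* (112 TPM). The order at the bottom was *Mageb16* (2.82 TPM) and *Prrg1* (0.432 TPM).

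A separate test asked whether the level differed from that of 1 copy. When the offset of the Deletion F libraries allowed for the single copy, 0 of the 19 protein-coding genes differed per copy in edgeR, and 3 had an unadjusted p under 0.05. These were *Tbl1x*, fitted above the level of 1 copy, and *Tmem47* and *Mageb16*, fitted below it. The fitted change per copy was above 0 in 13 genes and below 0 in 6, with a median of 0.06. Over all genes tested, 0.0875% were called in this fit. As in every fit per copy, genes outside the interval were tested without the offset for the single copy. The result depended on which spread served as error. In a fit with 1 term per line, which uses only the spread between clones of 1 line, 17 of the 19 genes were called lower, beside 2.9% of all genes lower and 5.66% in either direction. Per copy the same fit called 3 of the 19, beside 5.63% of all genes: *Nr0b1* (log2 0.64 per copy, edgeR adjusted p = 0.00215) and *Tbl1x* (0.32, adjusted p = 0.0244) were higher and *Tmem47* (-0.50, adjusted p = 0.0495) lower. The precision differed between genes: the interval of the log2 fold change, with -1 as the level of 1 copy, was -1.03 to -0.66 for *Pdk3* and -1.23 to 0.14 for *Nr0b1*.

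The *Cast* reads measured the copy that stayed. Of the 19 genes, 14 had a mean of at least 10 *Cast* counts, and edgeR called 0 of them changed, with 1 at an unadjusted p under 0.05 (*Tbl1x*, log2 fold change 0.39, interval 0.02 to 0.76). Over the 7873 genes tested on *Cast* counts 0.152% were called. The median over the 14 was 0.13, beside 0.00 over autosomal genes, with 11 fitted higher and 3 lower. All 14 intervals excluded 1, the value at which the *Cast* copy alone would give the level of 2 equal copies, and the highest upper bound was 0.97 (*Tmem47*). The copies were not equal in every gene: the *Cast* share in the comparison libraries was 37.8% for *Tmem47* and 84.6% for *Eif2s3x*. For such genes 1 is not the change that would restore the full level, and restoration was not tested gene by gene. For *Pdk3* the *Cast* level was 0.00 apart (interval -0.31 to 0.31) and for *Eif2s3x* 0.18 (-0.15 to 0.52). In sum over the protein-coding genes of the interval, the *Cast* reads of the clones were 0.17 and 0.12 (log2) above the mean of the comparison libraries, which themselves ran from -0.46 in Deletion A to 0.22 in Deletion K clone 1.

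**Figure D3:**
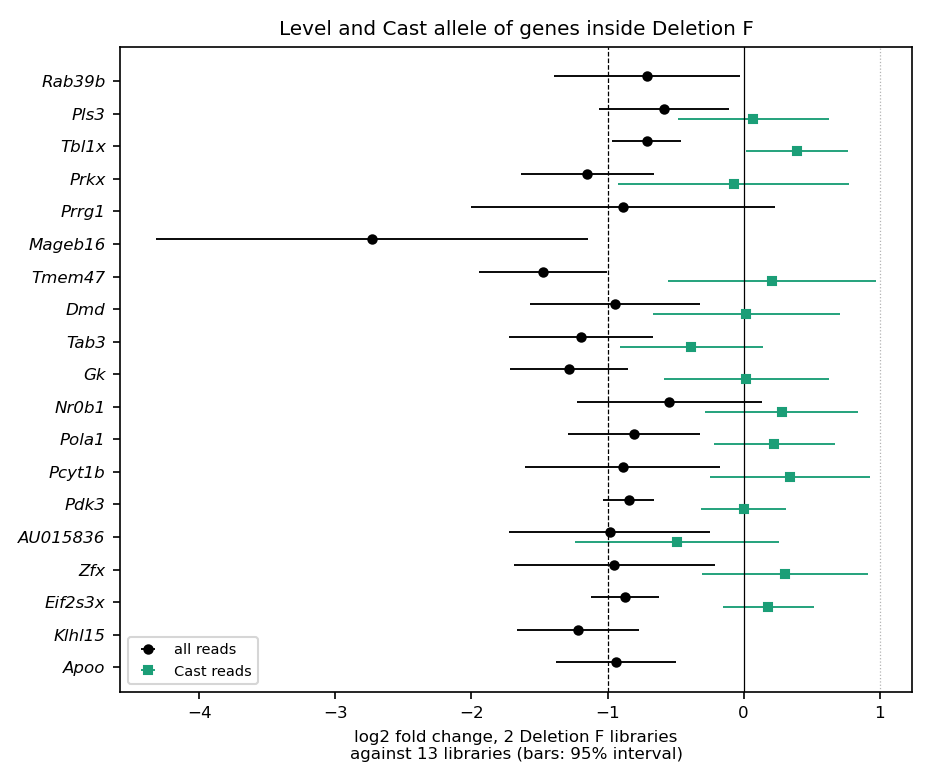
Log2 fold change of the 2 Deletion F libraries against the 13 comparison libraries for the 19 protein-coding genes inside the deletion, in order along the X chromosome. Circles are all reads and squares *Cast* reads (14 genes), with 95% intervals; the dashed line at -1 marks the level of 1 copy and the dotted line at 1 a doubled *Cast* copy. All circles are below 0 and no *Cast* interval reaches 1.

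The level that was left can be set beside the share that the *Cast* copy held in the lines with both copies. For 15 protein-coding genes with at least 100 allelic counts over the comparison libraries, the *Cast* share there had a median of 48.4% and the level left in Deletion F a median of 51.9%. The values were within 10 percentage points of each other in 9 of the 15 genes. *Gk* kept 41.1% of the level with a *Cast* share of 38.4% (Wilson interval 34.9% to 41.9%), and *Tmem47* kept 36.0% with a *Cast* share of 37.8% (33.9% to 41.9%). In both genes most allelic reads of the other lines came from the *Mus* copy. *Pdk3* kept 55.7% with a share of 56.4%. *Nr0b1*, *Pls3*, *Tbl1x* and *Pcyt1b* kept 12.3 to 13.7 points more than their *Cast* share as the mean of both clones. In *Pls3* the clones still had 8 and 3 *Mus* counts beside 33 and 41 *Cast* counts, so that not all of its allelic reads were *Cast*. The clones were close to each other in *Pls3* (66.1% and 67.1%) and *Nr0b1* (66.1% and 70.8%) and farther apart in *Tbl1x* (56.3% and 65.7%, with a share of 48.4%) and *Pcyt1b* (48.6% and 59.3%, with a share of 41.6%). *AU015836* kept 41.0% in clone 1 and 60.1% in clone 2, with a *Cast* share of 62.9%. *Eif2s3x* was the farthest apart: 84.6% of its 3366 allelic counts in the comparison libraries were *Cast* (83.3% to 85.8%), while 61.6% of its level was left in clone 1 and 47.6% in clone 2. Its allelic reads come from the few positions with a SNP, and whether these represent the whole transcript was not tested.

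Counts assigned to pseudogenes inside the interval stayed at the level of the other lines, with 1 exception. Of 14 tested processed pseudogenes, 0 were called lower, 10 were fitted higher and the median log2 fold change was 0.08. Against the level of 1 copy 8 of the 14 were called higher in edgeR. The share over all genes, 0.0606%, stands for 9 genes and includes these 8. Genes outside the interval were not tested against 1 copy. The 8 calls fell to 4 without Deletion H clone 1, to 3 with clone 2 of Deletion F alone and to 1 with clone 1 alone. *Gm8806* had 48.2 and 40.8 CPM in Deletion F and 35.1 to 47.7 CPM in the other libraries, so that clone 2 lay within the comparison range and clone 1 just above it. *Gm8722* had 10.8 and 9.41 CPM against 7.27 to 10.7 CPM. The exception was *Supt20-ps*, with 0.782 and 0.652 CPM against 1.68 to 5.27 CPM, without overlap (log2 fold change -2.03 ± 0.479 SE, edgeR adjusted p = 0.159). Processed pseudogenes are near-identical copies of transcripts from elsewhere in the genome, so that their counts can hold reads of the parent genes and are uncertain. In the pseudogenes of the interval 31.8% and 25.0% of allelic counts were assigned to *Mus* in the Deletion F clones, inside the 18.2% to 39.6% of the other libraries, although the *Mus* copy of these loci is deleted. Pseudogene counts of the clones, and the 8 calls above, therefore do not measure the remaining copy alone. The remaining non-coding genes were *4933407K13Rik*, at 2.74 and 1.96 CPM against 2.78 to 5.47 CPM, and the lincRNA *Gm27000*, at 7.52 and 6.98 CPM against 3.38 to 9.90 CPM. Neither passed the test.

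**Figure D4:**
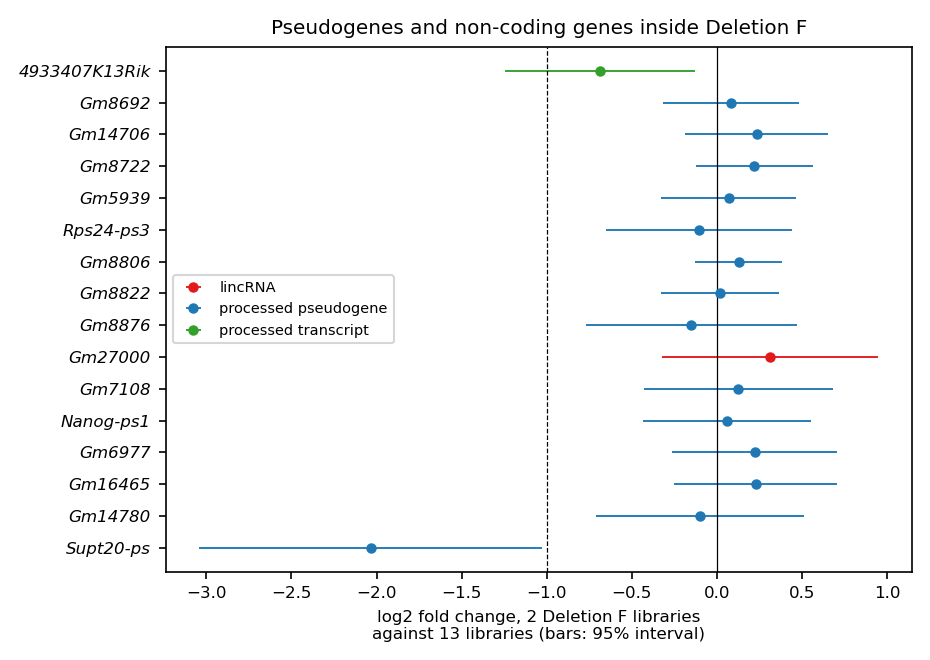
Log2 fold change with 95% interval of the 16 tested genes of other types inside Deletion F, in order along the X chromosome and coloured by type. The dashed line marks the level of 1 copy; 13 of the 14 pseudogene intervals include 0 and none includes -1, *Supt20-ps* lies below -1, and *4933407K13Rik* is the one gene whose interval includes -1 and not 0.

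Partners of the deleted genes were examined through lists of genes in the same complexes and pathways. Across 15 lists, 169 listed genes outside the interval were tested, and edgeR and DESeq2 each called 0. At an unadjusted p under 0.05 in edgeR 12 were higher and 6 lower, 18 of 169 in all, where 8.22% of all genes tested passed that mark. Of the 12 higher genes, *Gins2*, *Gins3* and *Pdp2* lie on the part of chromosome 8 that was raised in clone 2. *Gins3* had 21.8 CPM in clone 1 and 33.2 CPM in clone 2, against 16.5 to 22.7 CPM. The remaining subunits of eIF2, with its exchange factor eIF2B and *Eif5*, had a median log2 fold change of 0.13 over 8 genes. *Eif2s2*, the beta subunit, had 411 and 380 CPM, above the 258 to 367 CPM of the other libraries, and *Eif2s1*, the alpha subunit, had 442 and 396 CPM against 296 to 396 CPM. Both were at unadjusted p under 0.05 only (edgeR adjusted p = 0.484 and 0.432). Targets of the integrated stress response, which is set off by phosphorylation of eIF2, had a median of 0.10 over 18 genes.

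Replication fork genes had a median of 0.09 over 32 genes. *Prim1*, the primase subunit that works with *Pola1*, had 111 and 101 CPM against 72.6 to 96.2 CPM, without overlap (0.29 ± 0.103 SE, edgeR adjusted p = 0.438). For the pyruvate dehydrogenase complex and its kinases and phosphatases the median was -0.02 over 10 genes, with *Pdk1* at 239 and 259 CPM against 175 to 295 CPM. *Pcyt1a*, the paralog of *Pcyt1b*, had 43.5 and 38.6 CPM against 25.5 to 54.7 CPM, and its list had a median of -0.06 over 6 genes. *Utrn*, the utrophin gene related to *Dmd*, had 153 and 158 CPM against 92.3 to 162 CPM (edgeR adjusted p = 0.499), in a list with a median of 0.17 over 11 genes. Lists of MICOS (0.11 over 6 genes) and TAK1 and TAB genes (0.03 over 4) were likewise without a call.

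Naive pluripotency genes, of which *Nr0b1* is a regulator, had a median of 0.00 over 15 genes and core pluripotency genes 0.03 over 10. *Tfcp2l1* had 486 and 544 CPM in Deletion F within a comparison range of 306 to 1463 CPM. Formative and primed genes had a median of 0.04 over 11, primitive endoderm genes -0.17 over 9 and p53 targets -0.17 over 14. None of the 21 matched genes of the 2-cell-like state passed the filter. The 15 feeder fibroblast genes had a median of -0.58, with 0 called and 4 lower at an unadjusted p under 0.05, a mark that 4.55% of all genes tested passed in that direction.

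In the whole genome edgeR called 11 of 14863 genes (0.074%), 10 lower and 1 higher, and 1221 genes (8.22%) had an unadjusted p under 0.05. Besides the 6 genes of the interval, 4 protein-coding genes and 1 pseudogene were called. *Msmo1* (mm10 chromosome 8, 64718139 to 64733792), a sterol oxidase of cholesterol synthesis, was higher, with 130 and 213 CPM against 77.9 to 110 CPM (0.86 ± 0.147 SE, edgeR adjusted p = 0.0307), and it lies on the part of chromosome 8 that was raised in clone 2. *Lamb2* (chromosome 9, 108479736 to 108490530), a laminin chain, was lower, with 27.0 and 30.3 CPM against 40.7 to 57.0 CPM (-0.75 ± 0.129 SE, edgeR adjusted p = 0.0307). All comparison libraries, including the 5 with a lower feeder sum than Deletion F, had at least 40.7 CPM of *Lamb2*. A link between *Lamb2* and feeder content was not tested. *Crb3* (chromosome 17, 57059105 to 57065918), an apical polarity protein, had 9.87 and 11.5 CPM against 20.4 to 34.3 CPM (-1.32 ± 0.227 SE, edgeR adjusted p = 0.0307). *Chrnb1* (chromosome 11, 69784036 to 69795943), a subunit of the muscle acetylcholine receptor, had 0.782 and 1.12 CPM against 2.19 to 4.61 CPM (-1.70 ± 0.307 SE, edgeR adjusted p = 0.0426). None of these 4 genes overlapped the comparison range, which was also a condition for naming them. Over all genes tested, both clones lay below every comparison library in 2.21% and above every one in 1.96%. With the line as a block in limma voom, none of these 4 genes passed, nor did *Gm2223* of the X chromosome. The number of calls fell to 5 without Deletion D clone 2, K clone 1 or K clone 2, and to 6 without H clone 1. Clone 1 of Deletion F alone gave 1 call and clone 2 alone 26.

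On the X chromosome outside the interval, 1 of 554 tested genes was called, the processed pseudogene *Gm2223*, at 6.74 and 7.08 CPM against 12.4 to 20.4 CPM in the 11 libraries with 2 copies. The median log2 fold change was 0.06, against -0.01 for autosomal genes, and 48 of the 554 genes had an unadjusted p under 0.05 in edgeR, 32 higher and 16 lower. Over all genes tested 8.22% passed that mark, and 4.55% passed it as lower. For the 272 genes outside all deletions, the mean log2 level relative to autosomal genes was 0.11 in clone 1, above every comparison library, and 0.05 in clone 2, within their range of -0.07 to 0.08.

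Chromosome 8 separated the clones. Its median log2 ratio to the comparison libraries was -0.01 in clone 1 and 0.39 in clone 2, beside -0.03 to 0.03 in the other libraries. The *Mus* share was 49.9% (Wilson interval 49.5% to 50.3%) in clone 1 and 37.4% (37.0% to 37.7%) in clone 2, beside 49.6% to 50.6%. The shift of clone 2 did not cover the whole chromosome. The best single change point in its allelic share fell between *Palld*, which ends at 61902690, and *Ddx60*, which starts at 61928087 (mm10). On the centromere side of it the 167 protein-coding genes with a mean of at least 50 counts had a median ratio of 0.03 and a *Mus* share of 49.9% in clone 2. On the telomere side 413 genes had a median of 0.53, 398 of them were above 0, and the *Mus* share was 33.8% (33.4% to 34.1%). *Cast* reads of this segment were 0.96 (log2) above the comparison libraries and *Mus* reads 0.03 below. Clone 1 had a median of -0.02 and a *Mus* share of 50.0% there.

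Chromosome 14 of clone 2, with a whole-chromosome median of 0.02, held a raised and a lowered segment. This chromosome was chosen after its values were seen. In 232 bins of 10 Mb on the autosomes, the *Mus* share lay 5 or more percentage points outside the range of the comparison libraries in 0 bins of clone 1 and in 11 bins of clone 2, 7 on chromosome 8 and 4 on chromosome 14. On chromosomes 1 and 14 that range is widened by Deletion I clone 1, with *Mus* shares of 68.0% and 65.5%. A shift toward *Mus* could therefore go unflagged in the bins of these chromosomes. The change points on chromosome 14 fell between *Scara5* and *Pbk* (65764826 to 65805837) and between *Spry2* and *Mir17hg* (105896819 to 115042879). In the middle segment 92 protein-coding genes had a median log2 ratio of 0.52 and a *Mus* share of 33.4% (32.5% to 34.3%). In the terminal segment 21 genes had a median of -1.08, 20 of them were below 0, and 98.9% of 1058 allelic counts were *Mus* (98.03% to 99.35%). *Ipo5*, an importin of the terminal segment, had 370 *Mus* and 2 *Cast* counts in clone 2 and 401 and 384 in clone 1, with 543 CPM in clone 2 and 1221 CPM in clone 1 against 727 to 1461 CPM in the other libraries.

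In clone 2 the deleted X interval had a median log2 ratio of -0.82 over 17 protein-coding genes by the same measure (-0.87 in clone 1), with *Cast* reads 0.12 above the comparison libraries. The terminal segment of chromosome 14 had -1.08 over 21 genes, with *Mus* reads 0.03 above them. The 2 baselines differ: the median comparison library had -0.06 in the terminal segment and 0.03 in the X interval. The allelic baselines differ as well. *Mus* reads of the terminal segment ran from -0.31 in Deletion A to 0.83 in Deletion I clone 1, which raises their comparison mean. *Cast* reads of the X interval ran from -0.46 in Deletion A to 0.22 in Deletion K clone 1. The values 0.03 and 0.12 are therefore not on a common baseline. The median log2 ratio of clone 1 was -0.11 in the terminal segment. The segments on chromosome 14 were defined by these libraries, and no test of the difference was made. Deletion I clone 1, a comparison library, had medians of 0.52 on chromosome 1 and 0.54 on chromosome 14 with *Mus* shares of 68.0% and 65.5%, which moves the comparison mean there; without it 10 genes were called in the genome and 6 in the interval.

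**Figure D5:**
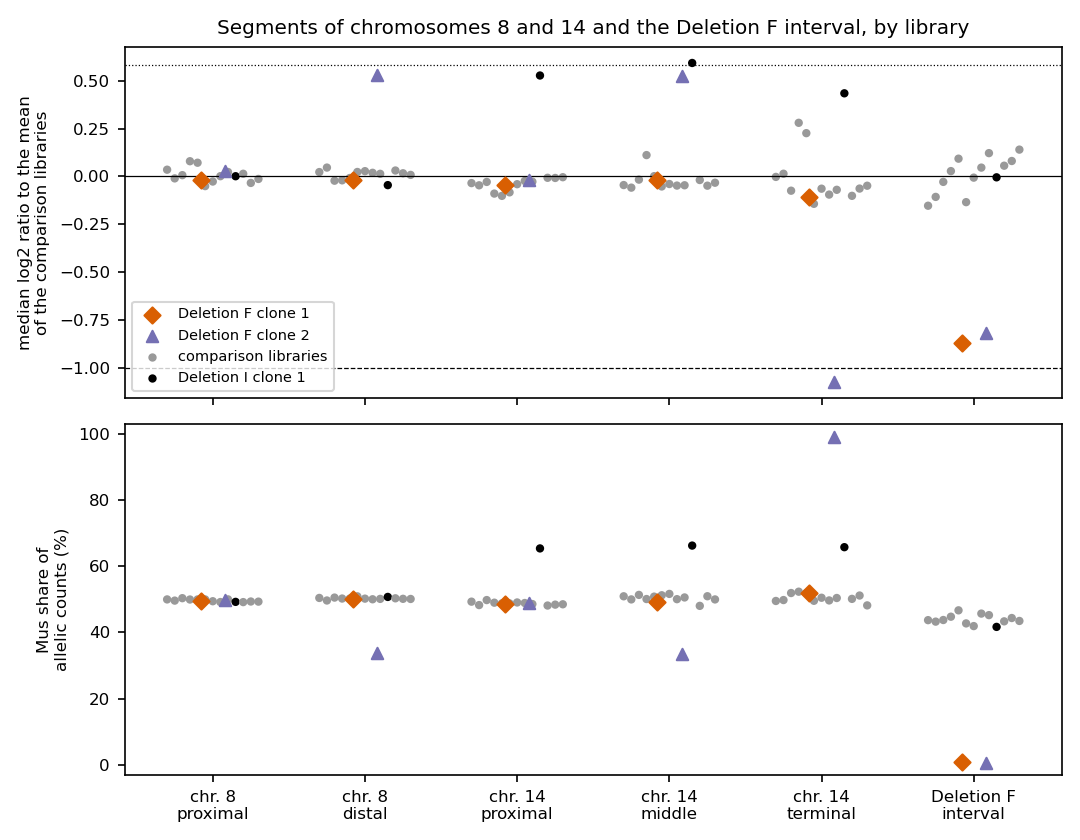
Median log2 ratio of protein-coding genes to the comparison mean (top) and *Mus* share of allelic counts (bottom) in segments of chromosomes 8 and 14 and in the Deletion F interval, 1 point per library. Diamonds are Deletion F clone 1, triangles clone 2, black points Deletion I clone 1 and grey points the other libraries; lines mark 0, the loss of 1 of 2 copies (-1) and a gain from 2 to 3 copies (dotted). Clone 2 alone is raised on distal chromosome 8 (0.53) and lowered on terminal chromosome 14 (-1.08), and both clones are low in the deleted interval.

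Each clone was also tested alone, with the assumption that the lone library varies like the others. For clone 2 edgeR called 22 genes higher (0.148% of those tested) and 4 lower (0.0269%), and 19 of the 22 lay on distal chromosome 8. On *Cast* counts it called 146 higher (1.85%) and 15 lower (0.191%), of which 117 were on distal chromosome 8, 28 in the middle of chromosome 14, and 13 of those lower in its terminal segment. Clone 1 alone had 0 genes higher and 1 lower (0.00673%) on all reads, with *Pdk3* as the call, and on *Cast* counts 0 higher and 1 lower (0.0127%). With both clones together, *Cast* counts gave 11 genes higher and 1 lower, and 9 of the 11 were on distal chromosome 8 and 2 in the middle of chromosome 14. *Rpl13*, a ribosomal protein of chromosome 8, had 289 and 821 *Cast* counts in the clones, and its level was 204 CPM in clone 1 and 343 CPM in clone 2 against 144 to 204 CPM. The gene called lower on *Cast* counts was *Krt19*, a keratin on chromosome 11, with 6 and 15 *Cast* counts in the clones. On all reads *Krt19* had 13.6 and 17.0 CPM against 22.3 to 58.8 CPM and was not called (edgeR adjusted p = 0.0731).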

How the data were processed

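Per the labels and the study's methods, the stranded mRNA libraries gave pairs of 50 bases. The authors ran TrimGalore 0.6.7 and HISAT2 2.2.1 against an mm10 genome whose strain SNPs were replaced by N. SNPsplit assigned reads to an allele, Samtools 1.10 made the merged files, and reads on Ensembl exons were counted by strand. For the counting the paper names featureCounts and the submitters' processing notes HTSeq 0.12.4. The deposited values are raw counts per gene of all reads, *Mus* reads and *Cast* reads.

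Gene positions and exon lengths came from GENCODE M21 (GRCm38), where 55240 of 55421 identifiers matched. Counts were tested with edgeR 4.0.16 (quasi-likelihood) in R 4.3.3, with 1 term for Deletion F, TMM factors of autosomal genes, a mean of at least 10 counts and Benjamini-Hochberg adjustment at 0.05. X-linked genes inside the deletion of a comparison line were fitted without that line. *Cast* counts used the scaling of all reads. Chromosome medians used a pseudocount of 0.5. The paper calls the clones independent, but clones of 1 line share that line, and both Deletion F libraries are of 1 line. The main fit has no term for the line. Its p-values therefore mix the spread between clones with the spread between lines and count clones of 1 line as separate samples. The code was run on simulated counts drawn independently for each library. These held no effect shared by clones of a line, so they cannot tell whether the p-values hold for these lines. DESeq2 1.42.0 and limma 3.58.1 served as alternatives, with Python 3.11.15 for summaries.

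The text names every tested protein-coding gene of the interval, genes of the lists, and up to 10 rises and falls elsewhere among called protein-coding genes that do not overlap the comparison libraries. Other genes (*Gm2223*, *Krt19*, *Rpl13*, *Ipo5*, the pseudogenes and genes at change points) were chosen after their values were seen. The members and lists were chosen with earlier results of these data known.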

Additional observations from a re-analysis of the deposited data

How the results depend on the processing

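The number of calls depended on how the spread between lines was treated. Against the 11 genes called in the genome, DESeq2 called 116, a fit without the count filter 7, a fit with 1 term per line 841, limma voom with the line as a block 1 and counts summed per line 0. For the 6 calls inside the interval these were 10 with DESeq2, 18 (17 protein-coding) with 1 term per line, 1 with voom and 0 with line sums. Per copy, the 8 calls became 4 without the filter, 16 with 1 term per line, 1 with voom, 0 with line sums and 0 among protein-coding genes only; with 1 term per line 3 protein-coding genes were called per copy (*Nr0b1* and *Tbl1x* higher, *Tmem47* lower). X-linked calls outside the interval were 3 with DESeq2, 41 with 1 term per line, 0 with voom, 0 with line sums and 0 with the copy number of the other lines in the offset. With 1 term per line 19 listed genes and 1 gene on *Cast* counts of the interval were called. On all reads the fit with 1 term per line called 5.66% of all genes tested, the share to set beside the 41 X-linked and 19 listed genes. That fit estimates the spread from clones of the same line, and line sums leave 1 sample of Deletion F.

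Leaving out each library in turn gave 1 to 26 calls in the genome, 1 to 7 in the interval, 1 to 9 per copy, 0 per copy among protein-coding genes, 0 to 2 on the rest of the X, 0 in the lists and 0 on *Cast* counts, with a median of -1.04 to -0.84 for the level and 0.04 to 0.17 for the *Cast* allele. The 1 and the 26 in the genome came with clone 1 and clone 2 of Deletion F alone, and the lowest values in the interval and per copy with clone 1 alone. The 9 calls per copy came without Deletion I clone 1; without Deletion D clone 1 the interval had 7 calls and the rest of the X 2. No gene named for its fold change reversed under any alternative: of 618 values, 524 kept their side of the threshold, 79 lost it and 15 gained it.

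With the replicate number as a block, 8 genes were called in the genome and 6 in the interval, and *Lamb2*, *Crb3* and *Chrnb1* were no longer called (edgeR adjusted p = 0.0522, 0.0512 and 0.0633). The numbers name clones only: the difference between clones 1 and 2 correlated between lines at -0.12 to 0.21, over 0.1 in 3 of 15 pairs of lines.

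The chromosome 8 median of clone 2 (0.39) was 0.41 over protein-coding genes, and 0.52 beyond the change point, an alternative chosen after seeing the data. The *Mus* share of the interval rose from 0.976% and 0.722% to 3.87% and 2.96% when genes of all types were counted. Without the segments of chromosomes 8 and 14, also chosen after seeing the data, 10 genes were called. No gene crosses a border, so counting overlapping genes changed nothing. Depth limits the allelic values, since 5 of the 19 protein-coding genes had too few *Cast* counts to be tested.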
